A study of Mus musculus with 24 samples.

Results

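Regulators of the mitogen-activated protein kinases (MAPKs) from the GADD45 and dual-specificity phosphatase (DUSP) families were followed in mouse muscle, together with the RNA-binding protein gene Zfp36 and the p38 kinase gene Mapk14. The set was defined by name, with earlier results of these data known, and held 10 of the 18669 genes in the table. They were Gadd45a, Gadd45b, Gadd45g, Dusp1, Dusp4, Dusp6, Dusp10, Dusp16, Zfp36 and Mapk14. All 10 passed the filter on low counts, which left 13754 genes tested. RNA from quadriceps femoris muscle of 24 mice was sequenced 4 h after treatment, with 2 mice in each of 12 groups. The genotypes were wild type, R6/2 (a transgenic model of Huntington's disease that carries exon 1 of mutant HTT) and Hsf1-/- (lacking a functional gene for HSF1, the main transcription factor of the heat shock response), and the labels give a CBA x C57BL/6 F1 background for every group. Wild type and R6/2 mice were 12 weeks old, and Hsf1 knockout mice were 10 weeks old in the heat shock (HS) experiment and 8 weeks old in the HSP990 experiment. Age can therefore not be told apart from the knockout, nor from the experiment within the knockout mice. Mice given HS were kept at a body temperature of 41.5 °C over 15 min, and control mice spent 21 min at 36.9 °C, all of them under isoflurane in a heating pad. HSP990, an inhibitor of the chaperone HSP90, was given at 12 mg/kg by gavage as a suspension in methyl cellulose and saline, and its vehicle is labelled as saline. The study asked whether the response to HS or HSP90 inhibition was impaired in R6/2 mice.

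MAPKs are activated by a cascade of kinases and switched off by phosphatases, and the p38 and JNK branches respond to cell stress. GADD45 proteins bind and activate MAP3K4, a kinase upstream of p38 and JNK, whereas DUSPs of the MAPK phosphatase class remove the activating phosphates. ZFP36, also called tristetraprolin (TTP), is phosphorylated downstream of p38 and binds AU-rich elements in short-lived mRNAs, which are then degraded. In muscle, GADD45A is known from atrophying fibres, where it is induced after denervation.

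Library totals ranged from 22450177 to 46599238 counts, and levels are given as CPM after TMM scaling (TMM CPM). The smallest p of an exact two-sided permutation test of 1 gene with 2 mice per group is 0.333. The tests were therefore those of edgeR's quasi-likelihood fit over all genes with Benjamini-Hochberg adjustment, and a gene is called where its adjusted p is below 0.05. Hsf1 mRNA was lower but still counted in the knockout (21.1 to 29.0 TMM CPM, against 52.9 to 68.5 in wild type and 45.3 to 53.7 in R6/2 mice). The summed level of 12 muscle fibre markers was 61800 to 119000 TMM CPM in R6/2 mice and 244000 to 346000 in the other mice. Counts over 4 Y-linked genes were 0 to 4 in the wild type and R6/2 mice of the HS experiment and 3916 to 9392 in all other mice, so that sex cannot be told apart from the experiment in these genotypes, nor from the knockout in the HS experiment. The second R6/2 vehicle mouse stood apart from its partner in Zfp36, Gadd45g and Dusp10. The first HSP990-treated Hsf1 knockout mouse did so in Dusp4, in Dusp6 (18.7 against 5.21 TMM CPM) and in Gadd45g (74.1 against 24.2). Other pairs differed too, such as the knockout vehicle mice in Gadd45g (135.1 and 43.2 TMM CPM). In bulk RNA, fewer cells of a type and less RNA per cell cannot be told apart.

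Mapk14, which encodes p38α, had the highest mean level per length of the 10 transcripts in untreated wild type muscle. Over the 4 control and vehicle mice its mean level per kb of exon was 54.0 TMM CPM. It was followed by Gadd45b (37.3), Gadd45g (36.3), Gadd45a (26.5), Dusp10 (25.9), Zfp36 (11.5), Dusp1 (7.29), Dusp6 (3.86), Dusp16 (1.85) and Dusp4 (1.68) on the same scale. Neighbours in this order overlapped over the 4 mice, except that Mapk14 lay above Gadd45b, Dusp1 above Dusp6 and Dusp6 above Dusp16. Gadd45g, not a neighbour of Mapk14, lay above it per kb in the second vehicle mouse (77.2 TMM CPM before division by length). Mapk14 also varied least, from 194.9 to 280.9 TMM CPM over all 24 mice, a ratio of 1.44. Zfp36 and Gadd45g varied most, with ratios of 19.4 and 17.3 between the highest and the lowest mouse, followed by Dusp4 (15.2, from 1 mouse) and Dusp10 (12.1). For Gadd45b, Dusp1, Gadd45a and Dusp6 the ratio was 5.35 to 6.63, and for Dusp16 it was 2.12.

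**Figure D1:**
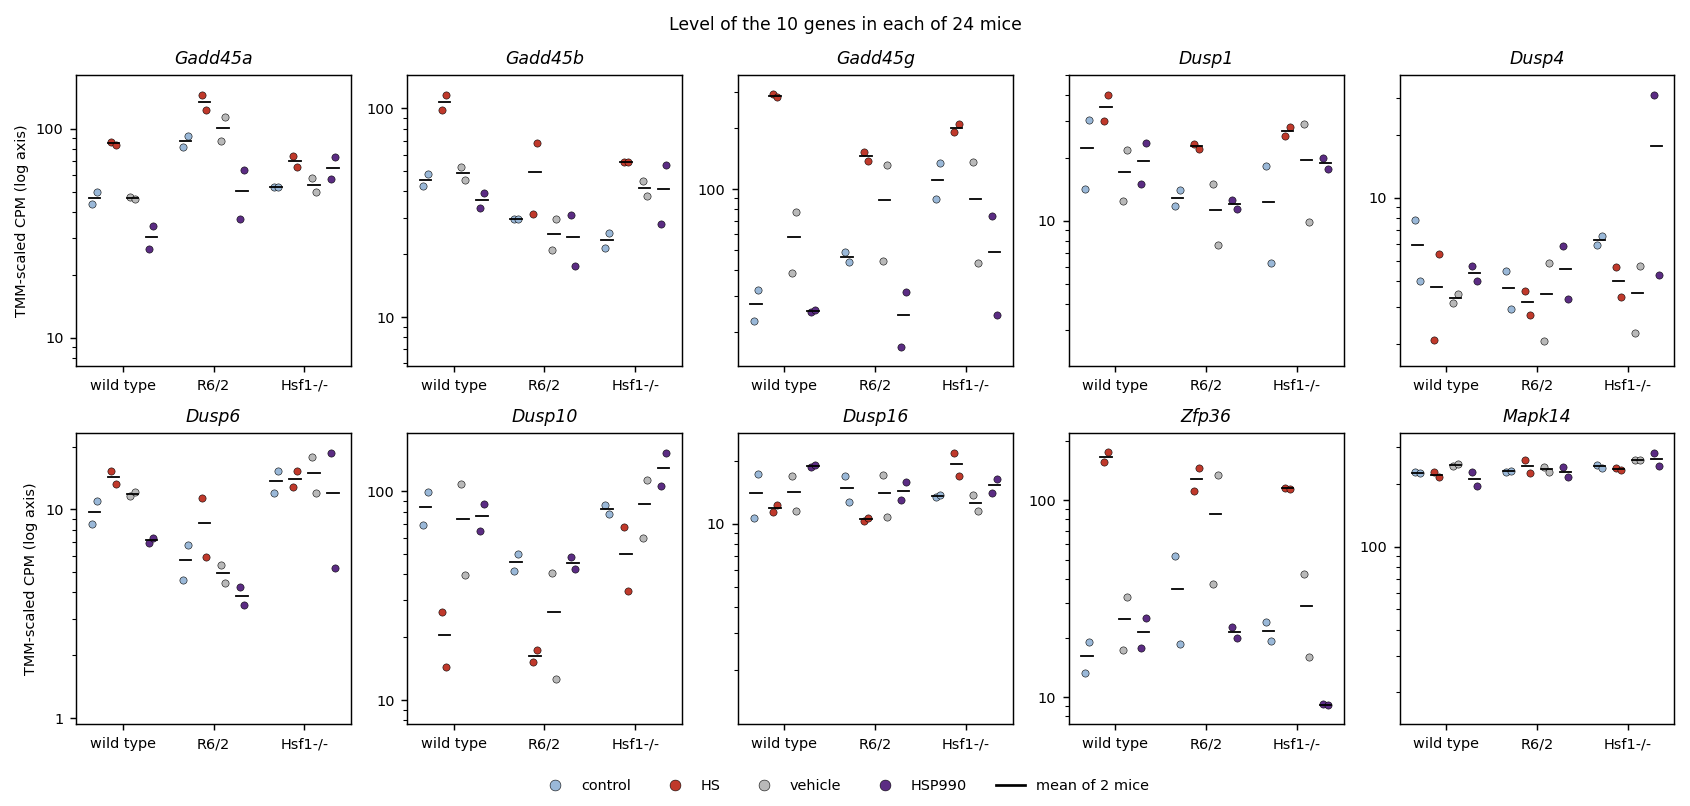
Level of each of the 10 genes in each of the 24 mice (TMM CPM, log axis), by genotype and treatment, with 1 point per mouse. Zfp36 and Gadd45g span the widest range (ratios of 19.4 and 17.3) and Mapk14 the narrowest (1.44).

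After HS, 3 of the 10 genes rose in wild type mice, where 2.06% of all genes were called and 1.59% were called upwards. They were Gadd45g (10.6-fold higher), Zfp36 (10.3-fold) and Gadd45a (1.83-fold). DESeq2 called 5 of the 10 (3.81% of all genes), adding Gadd45b upwards and Dusp10 downwards. With scaling by library size only, which moved the median of all genes to -0.15, 3 of the 10 were called (2.3% of all genes), with Dusp10 in place of Gadd45a. The median log2 fold change of the 10 genes was 0.60, against -0.01 over all genes tested. The genes were chosen with earlier results of these data known, so such shares and medians describe the set and do not test it.

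Gadd45g, on chromosome 13 (mm9, chr13:51942047-51943837, plus strand), was at 22.6 and 31.8 TMM CPM in control mice and reached 292.0 and 283.9 in HS mice. The groups lay far apart, and the log2 fold change was 3.40 ± 0.60 (SE, n = 2 mice per group, adjusted p = 0.0061). Zfp36 (chr7:29161803-29164274, minus strand) gave 13.2 and 19.1 TMM CPM in the controls and 156.6 and 176.3 after HS. Its log2 fold change was 3.36 ± 0.57 (adjusted p = 0.0047), again with no overlap. A group that loses a mouse holds 1, which is then assumed to vary like the mice of the other groups. Without the first control mouse the log2 fold change was 3.18 (adjusted p = 0.14) for Gadd45g and 3.13 (adjusted p = 0.12) for Zfp36, and without the second it was 3.67 (adjusted p = 0.07) and 3.65 (adjusted p = 0.06).

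Gadd45a (chr6:66985090-66987451, minus strand), the family member linked to muscle atrophy, gave 43.5 and 49.6 TMM CPM in the controls and 87.0 and 83.7 after HS. All 4 mice followed the grouping and the log2 fold change was 0.87 ± 0.21 (adjusted p = 0.039). It lost its call without any 1 of the 4 mice, with log2 fold changes of 0.78 (adjusted p = 0.34) and 0.97 (0.16) without the first and the second control mouse and 0.85 (0.18) and 0.90 (0.17) without the first and the second HS mouse, and also under library size only (0.74, adjusted p = 0.093). Gadd45a overlaps the opposite-strand lincRNA E230016M11Rik, and whether reads were counted by strand is not given in the sources used here. Gadd45b (chr10:80392836-80394949, plus strand), the third family member, was at 42.5 and 48.7 TMM CPM in the controls and at 98.2 and 116.2 after HS. It did not overlap between the groups either and had a log2 fold change of 1.23 ± 0.33 (adjusted p = 0.067). Such separation held for 6 of the 10 genes, and its share over all genes was not counted.

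Upstream sequences of the 3 genes called after HS in wild type mice are shown so that their promoters can be compared. Each is the 250 bases before the RefSeq transcription start (GRCm38.p6), written 5′ to 3′ along the gene, with capitals for matches to the motifs searched. The windows lie at chr7:28379229-28379478 (minus strand) for Zfp36, chr13:51846425-51846674 (plus strand) for Gadd45g and chr6:67037408-67037657 (minus strand) for Gadd45a.
Zfp36: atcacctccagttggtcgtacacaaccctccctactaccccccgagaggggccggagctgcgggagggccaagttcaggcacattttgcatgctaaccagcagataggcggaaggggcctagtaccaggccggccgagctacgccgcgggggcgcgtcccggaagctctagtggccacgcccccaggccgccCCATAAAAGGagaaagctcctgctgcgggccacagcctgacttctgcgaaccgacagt
Gadd45g: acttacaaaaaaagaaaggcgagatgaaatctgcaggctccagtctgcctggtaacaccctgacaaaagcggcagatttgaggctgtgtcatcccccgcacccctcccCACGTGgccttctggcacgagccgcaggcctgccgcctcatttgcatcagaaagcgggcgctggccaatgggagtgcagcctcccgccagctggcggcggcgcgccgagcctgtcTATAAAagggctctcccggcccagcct
Gadd45a: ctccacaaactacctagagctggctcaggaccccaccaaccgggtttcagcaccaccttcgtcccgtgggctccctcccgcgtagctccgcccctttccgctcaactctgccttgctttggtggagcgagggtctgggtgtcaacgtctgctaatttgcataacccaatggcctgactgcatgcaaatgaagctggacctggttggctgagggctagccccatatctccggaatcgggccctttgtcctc

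The capitals mark different motifs. In Zfp36 they are a CArG box, the binding sequence of serum response factor, at -58 to -49 from the start, a motif held by 1.63% of 32851 promoter windows of 250 bases before to 50 bases after a start. In Gadd45g they are an E-box (CACGTG, 7.15% of windows) at -142 to -137 and a TATA box (TATAAA, 13.6%) at -27 to -22. Gadd45a held none of the motifs searched. A start was listed for 9 of the 10 genes, all but Dusp4, and both strands were searched. Among the other members, Gadd45b held a TATA box and an E-box too, and Dusp1 held a cAMP response element (TGACGTCA, 1.79% of windows) at -143 to -136, the shorter TGACG (20.8%), in part within it, and an E-box. Dusp16 held TGACG and 2 units of the heat shock element (GAANNTTC or TTCNNGAA, 15.1%), and 1 of the 2 starts of Mapk14 held 1 arm of the glucocorticoid response element (AGAACA or TGTTCT, 19.0%). No member held a heat shock element of 3 units (GAANNTTCNNGAA or TTCNNGAANNTTC, 0.603% of windows), a full glucocorticoid response element (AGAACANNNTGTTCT, 0.00913%) or an AP-1 site (TGANTCA, 7.81%). These matches describe letters in a short window and no binding was measured.

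The RNA side is shown for the same reason, since TTP binds UAUUUAU in its target mRNAs. In the longest annotated 3′ UTR of each gene (mm9, GENCODE vM1), TATTTAT was found 3 times in Zfp36 itself, 3 times in Dusp1 and 1 time in Gadd45a. The other 7 members held none, and 23.9% of 19915 genes held at least 1. Below are 1 site of each gene with 10 flanking bases on each side, with the heptamer in capitals.
Zfp36: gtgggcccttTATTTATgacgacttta
Dusp1: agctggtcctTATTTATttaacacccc
Gadd45a: tgtgaaaggtTATTTATgataaagttt

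None of the 5 DUSPs was called after HS in wild type mice. Dusp10 (chr1:185837181-185899515, plus strand), which encodes a phosphatase of p38 and JNK, gave 68.9 and 98.9 TMM CPM in the controls and 26.4 and 14.5 after HS. Both HS mice lay below both controls, with a log2 fold change of -2.04 ± 0.52 and an adjusted p of 0.054. An overlapping gene on the opposite strand, 1700056E22Rik, shares part of its locus. Dusp1 (chr17:26642535-26645464, minus strand), an immediate early phosphatase, gave 14.2 and 30.2 TMM CPM in the controls and 30.1 and 40.1 after HS, so the groups overlapped (log2 fold change 0.66). Dusp6 (chr10:98725865-98730122, plus strand), which acts on ERK, had a log2 fold change of 0.55, Dusp4 (chr8:35870351-35882948, plus strand) of -0.66 and Dusp16 (chr6:134665488-134742643, minus strand), a JNK phosphatase, of -0.24. Mapk14 (chr17:28828287-28885349, plus strand) differed by -0.03 ± 0.10, with a 95% confidence interval from -0.26 to 0.20.

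HS led to 0 calls among the 10 genes in R6/2 mice, where 0.0436% of all genes were called. At an unadjusted p below 0.05 there were 5 (8.12% of all genes) and by DESeq2 0 (0.887%). Zfp36 gave 52.5 and 18.6 TMM CPM in R6/2 controls and 111.1 and 145.2 after HS. The 2 controls differed from each other by more than in wild type mice, and the log2 fold change was 1.85 ± 0.53 (adjusted p = 0.25), rising to 2.79 without the first control mouse and falling to 1.29 without the second. Gadd45g gave 49.3 and 43.7 TMM CPM in the controls and 152.8 and 136.7 after HS, a log2 fold change of 1.64 ± 0.56 (adjusted p = 0.38). Gadd45a gave 82.1 and 92.9 TMM CPM in the controls and 145.8 and 123.6 after HS, with a log2 fold change of 0.62 (adjusted p = 0.36). For these 3 genes the groups did not overlap, which held for 7 of the 10 genes in these mice. How many of all genes separated in this way was not counted. Separation of 2 against 2 mice gives an exact permutation p of 0.333. Gadd45b was at 29.6 and 29.4 TMM CPM in the controls and at 31.1 and 68.6 after HS, with 1 of the 2 HS mice near the controls (log2 fold change 0.76, adjusted p = 0.56). Dusp10 gave 41.3 and 50.0 TMM CPM in the controls and 15.2 and 17.4 after HS (log2 fold change -1.49 ± 0.51, adjusted p = 0.39).

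In Hsf1 knockout mice 0 of the 10 genes were called after HS, where 0.00727% of all genes were. At an unadjusted p below 0.05 there were 3 (8.8% of all genes), and DESeq2 called 2 (1.17%), Zfp36 and Gadd45b. Zfp36 gave 24.3 and 19.2 TMM CPM in knockout controls and 116.1 and 113.9 after HS, a log2 fold change of 2.40 ± 0.55 (adjusted p = 0.11). Gadd45b gave 21.5 and 25.3 TMM CPM in the controls and 55.2 and 55.2 after HS, a log2 fold change of 1.24 ± 0.34 (adjusted p = 0.18). In both genes the groups were apart, which held for 9 of the 10 genes, among them Mapk14 (log2 fold change -0.04). The share of all genes that separated in this way was not counted here either. Gadd45g started higher than in the other genotypes, at 89.2 and 133.7 TMM CPM, and reached 191.0 and 209.6 after HS (log2 fold change 0.85, adjusted p = 0.76). Gadd45a had a log2 fold change of 0.41 (adjusted p = 0.62), Dusp1 of 1.12 (0.53) and Dusp10 of -0.71 (0.79).

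Whether these HS responses differed from the wild type response was tested as an interaction. For R6/2 mice 0 of the 10 genes were called (0.0727% of all genes), with 1 at an unadjusted p below 0.05 (4.86% of all genes) and 0 by DESeq2 (0.24%). The response of Gadd45g was lower in R6/2 mice by 1.76 ± 0.78 on the log2 scale (adjusted p = 0.99), with a difference of -1.76 and a 95% confidence interval from -3.47 to -0.06. For Zfp36 the difference was -1.51, with an interval from -3.13 to 0.10 (adjusted p = 0.99). The intervals are wide, so that equal responses were not shown. For Hsf1 knockout mice 0 of the 10 were called (0.16% of all genes), with 2 at an unadjusted p below 0.05 (3.72%; Gadd45g and, at 0.05 after rounding, Dusp16, whose interval from -0.02 to 1.55 held 0) and 0 by DESeq2 (0.284%). Gadd45g differed by -2.56 ± 0.79 (unadjusted p = 0.0048, adjusted p = 0.84, interval from -4.27 to -0.84), and was called when only the groups compared were fitted (adjusted p = 0.0078). Zfp36 differed by -0.96 (adjusted p = 1.0) and Gadd45a by -0.46. The R6/2 and the knockout comparison share the wild type mice, so they are not independent of each other. In the knockout comparison, sex (by Y-linked counts) and age cannot be told apart from the genotype.

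**Figure D2:**
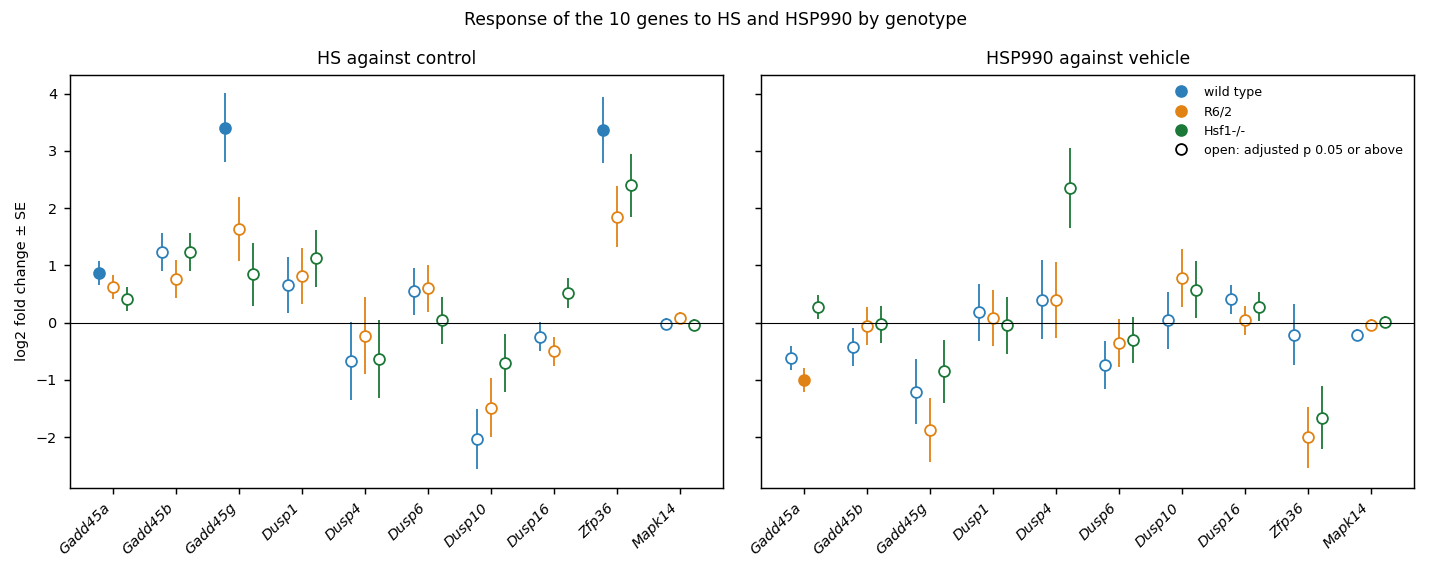
Log2 fold change of each gene after HS (against control) and after HSP990 (against vehicle) in wild type, R6/2 and Hsf1 knockout mice, with bars for the SE and filled points for adjusted p below 0.05. Gadd45g, Zfp36 and Gadd45a are filled after HS in wild type mice and Gadd45a after HSP990 in R6/2 mice.

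After HSP990, edgeR called none of the 10 genes upwards in any genotype. In wild type mice 0 of the 10 were called (1.85% of all genes), with 2 at an unadjusted p below 0.05 (13.2%) and 0 by DESeq2 (3.82%). Zfp36 gave 17.5 and 32.4 TMM CPM with vehicle and 17.9 and 25.2 with HSP990, overlapping levels with a log2 fold change of -0.21 (adjusted p = 0.91). Gadd45g gave 38.7 and 77.2 TMM CPM with vehicle and 24.8 and 25.5 with HSP990 (log2 fold change -1.20, adjusted p = 0.37). Gadd45a gave 47.4 and 46.3 TMM CPM with vehicle and 26.6 and 34.4 with HSP990 (log2 fold change -0.62, adjusted p = 0.18). For both GADD45 genes the HSP990 mice lay below the vehicle mice. The groups did not overlap in 7 of the 10 genes, a count whose share over all genes is not known.

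In R6/2 mice 1 of the 10 genes was called after HSP990, where 1.43% of all genes were called and 0.96% downwards. This was Gadd45a, at 87.3 and 113.9 TMM CPM with vehicle and 36.9 and 63.9 with HSP990. It fell by 1.00 ± 0.21 on the log2 scale (adjusted p = 0.022), to 0.501 of the vehicle level. DESeq2 called 2 of the 10 (2.64% of all genes). The call on Gadd45a was lost without the first HSP990 mouse (log2 fold change -0.65, adjusted p = 0.29) and without the second vehicle mouse (-0.79, adjusted p = 0.26). Zfp36 gave 37.5 and 133.8 TMM CPM with vehicle and 22.7 and 20.02 with HSP990, a log2 fold change of -2.004 ± 0.54 (adjusted p = 0.092) that was -0.81 without the second vehicle mouse. Gadd45g gave 44.5 and 131.7 TMM CPM with vehicle and 16.9 and 31.1 with HSP990, -1.87 ± 0.57 on the log2 scale (adjusted p = 0.16) and -0.89 without that mouse. In both genes the second vehicle mouse lay far above the other 3 mice. The same mouse had the lowest Dusp10 of all 24, at 12.6 TMM CPM against 40.5 in its partner, and 48.5 and 42.6 were measured with HSP990.

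In Hsf1 knockout mice 0 of the 10 genes were called after HSP990 (0.218% of all genes), with 2 at an unadjusted p below 0.05 (9.48%). DESeq2 called 1, Dusp4 (0.945%). Dusp4, which acts on ERK and JNK, gave 2.26 and 4.73 TMM CPM with vehicle and 31.2 and 4.29 with HSP990. The first HSP990 mouse alone was high, and the log2 fold change of 2.35 ± 0.69 (adjusted p = 0.26) was 0.30 without it. In that mouse the summed level of 8 adipocyte markers was 2500 TMM CPM, against 582 in its partner, and Ucp1, a gene of brown fat, was at 495.3 against 0.307. Their part in the Dusp4 level was not tested. Zfp36 reached its lowest levels of the series, at 9.27 and 9.11 TMM CPM with HSP990 against 42.3 and 16.0 with vehicle (log2 fold change -1.66 ± 0.55, adjusted p = 0.33). Gadd45a, at 58.0 and 49.9 TMM CPM with vehicle and 57.3 and 73.0 with HSP990, overlapped between the groups (log2 fold change 0.27).

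The response to HSP990 was not shown to differ between genotypes for any of the 10 genes. For R6/2 against wild type mice 0 were called (0% of all genes), with 1 at an unadjusted p below 0.05 (7.13% of all genes) and 0 by DESeq2 (0.334%). Zfp36 differed by -1.79, with an interval from -3.42 to -0.16 (adjusted p = 0.64), and by -0.60 without the second R6/2 vehicle mouse. Gadd45a differed by -0.38. For Hsf1 knockout against wild type mice 0 were called (0.422%), with 1 at an unadjusted p below 0.05 (6.89%) and 0 by DESeq2 (0.829%). Here Gadd45a differed by 0.89 ± 0.30 (adjusted p = 0.43), Zfp36 by -1.45 and Dusp4 by 1.95.

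Set against each other within a genotype, the responses to HS and to HSP990 differed in the same 3 genes in wild type and R6/2 mice. In wild type mice Gadd45a, Gadd45g and Zfp36 were called (3 of 10, against 2.38% of all genes), with differences between the log2 fold changes of 1.49 (adjusted p = 0.012), 4.61 (0.0058) and 3.57 (0.019). In R6/2 mice the same 3 genes were called (1.63% of all genes), with differences of 1.62 (0.0071), 3.51 (0.031) and 3.85 (0.012). Of the 8 fits without 1 mouse, 6 lost the wild type call on Zfp36 (3.06 to 3.86, adjusted p up to 0.12), 3 that on Gadd45a (1.32 to 1.51, up to 0.072) and 0 that on Gadd45g. Among R6/2 mice 6 such fits lost the call on Gadd45g and 4 that on Zfp36, with the smallest values without the second vehicle mouse (2.53, adjusted p = 0.23, and 2.66, adjusted p = 0.1), and 0 that on Gadd45a. The wild type and R6/2 mice of the HS experiment had 0 to 4 Y-linked counts and those of the HSP990 experiment 3923 to 9392, so that sex, anaesthesia and the treatment cannot be told apart here. In Hsf1 knockout mice, which had Y-linked counts in both experiments, age (10 weeks in the HS and 8 weeks in the HSP990 experiment) and anaesthesia cannot be told apart from the treatment. Of the 10 genes 1 was called there (0.145% of all genes). This was Zfp36, with a difference of 4.07 ± 0.78 that lay just under the threshold (adjusted p = 0.05 after rounding) and was not called in 7 of the 8 fits without 1 mouse (3.20 to 4.24, adjusted p of 0.066 to 0.25), all but that without the second vehicle mouse (4.61, adjusted p = 0.027).

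Without treatment, R6/2 mice differed from wild type mice in 5 of the 10 genes, where 30.5% of all genes were called, 15.1% upwards and 15.4% downwards. Control and vehicle mice entered this comparison with equal weight, which gave 4 mice per genotype. Gadd45a and Zfp36 rose, and Gadd45b, Dusp6 and Dusp10 fell. Gadd45a ranged from 82.1 to 113.9 TMM CPM in the 4 R6/2 mice (82.1, 92.9, 87.3 and 113.9) and from 43.5 to 49.6 in the 4 wild type mice (43.5, 49.6, 47.4 and 46.3). The groups were well apart, the log2 fold change was 1.01 ± 0.15 (2.01-fold, adjusted p = 9.8e-05), and the call held in all alternatives run. Zfp36 was at 52.5, 18.6, 37.5 and 133.8 TMM CPM in R6/2 mice and at 13.2, 19.1, 17.5 and 32.4 in wild type mice. It overlapped between the genotypes (log2 fold change 1.46 ± 0.38, adjusted p = 0.0078), and the call was lost without the first R6/2 control mouse (0.99, adjusted p = 0.068) or the second R6/2 vehicle mouse (0.86, adjusted p = 0.073).

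Gadd45b was at 29.6, 29.4, 20.9 and 29.4 TMM CPM in R6/2 mice and at 42.5, 48.7, 52.5 and 45.3 in wild type mice. It fell by 0.80 ± 0.23 on the log2 scale (adjusted p = 0.016) with no overlap, and was not called without the first R6/2 vehicle mouse (-0.68, adjusted p = 0.07), the second wild type control mouse (-0.74, 0.052) or the first wild type vehicle mouse (-0.74, 0.051). Dusp6 was at 4.60, 6.79, 5.44 and 4.43 TMM CPM in R6/2 mice and at 8.50, 10.9, 11.6 and 12.2 in wild type mice. It fell by 1.02 ± 0.30 (adjusted p = 0.015), also without overlap. Dusp10 was at 41.3, 50.0, 40.5 and 12.6 TMM CPM in R6/2 mice and at 68.9, 98.9, 108.1 and 39.9 in wild type mice, with a fall by 1.18 ± 0.36 (adjusted p = 0.02) and 1 wild type mouse within the R6/2 range. The calls on Dusp6 and Dusp10 were lost without the first R6/2 control mouse (log2 fold changes of -0.89 and -1.11), the second R6/2 vehicle mouse (-0.95 and -0.87) or the second wild type control mouse (-0.92 and -1.03). That on Dusp10 was also lost without the first wild type vehicle mouse (-0.73, adjusted p = 0.15), its smallest value. Gadd45g (0.69, adjusted p = 0.2) and Dusp1 (-0.69, adjusted p = 0.15) overlapped between the genotypes. Mapk14 differed by -0.02 ± 0.07, with an interval from -0.18 to 0.14.

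The calls depended on the scaling, while the 5 called genes kept their direction. The muscle fibre markers, which take a large share of a muscle library, were lower in R6/2 mice (11 of 12 called down, median log2 fold change -1.84), and their part in these differences was not tested. With scaling by library size only, the median of all genes moved from 0.05 to 0.66, and 5 of the 10 genes were called (64.5% of all genes), all of them upwards. Gadd45a (1.61) and Zfp36 (2.06) kept their call, whereas Gadd45b (-0.19), Dusp6 (-0.41) and Dusp10 (-0.56) were no longer called. Gadd45g (1.29), Dusp16 and Mapk14 were called instead. In the control mice alone 1 of the 10 was called (12.4% of all genes), Gadd45a with a log2 fold change of 0.91 (adjusted p = 0.01). In the vehicle mice alone 3 were called (19.2%), Gadd45a (1.10, adjusted p = 0.0016), Zfp36 (1.78, adjusted p = 0.028) and Dusp6 (-1.27, adjusted p = 0.044).

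**Figure D3:**
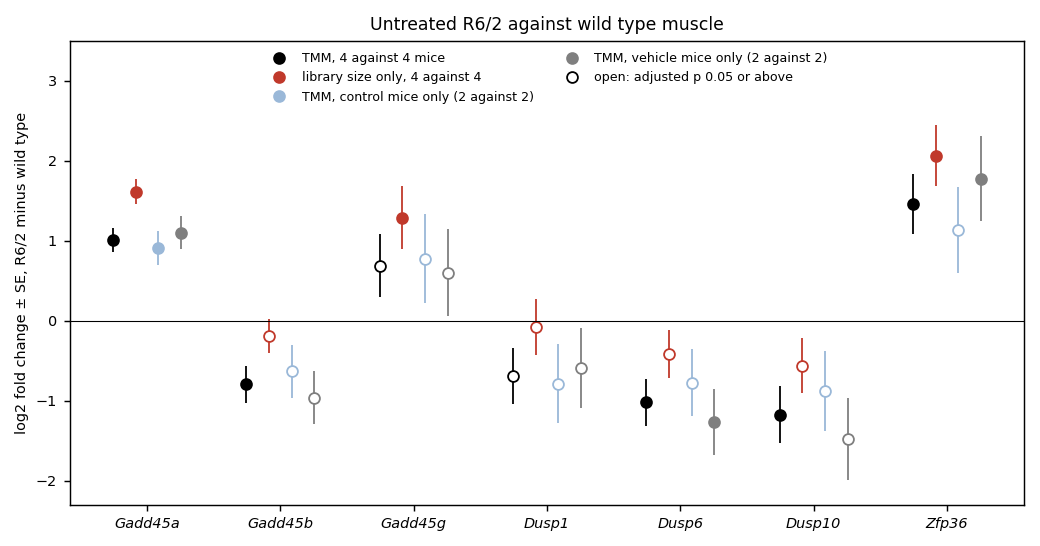
Log2 fold change of 7 genes in untreated R6/2 against wild type mice in 4 fits, namely control and vehicle mice together with TMM scaling, the same with library size only, control mice alone and vehicle mice alone. Gadd45a lies above 0 and is called in all 4 fits, whereas Gadd45b, Dusp6 and Dusp10 are not called with library size only.

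Untreated Hsf1 knockout mice had 0 of the 10 genes called against wild type mice (0.974% of all genes), with 2 at an unadjusted p below 0.05 (14.5%) and 0 by DESeq2 (2.53%). Gadd45g was at 89.2, 133.7, 135.1 and 43.2 TMM CPM in the knockout and at 22.6, 31.8, 38.7 and 77.2 in wild type mice. The ranges overlapped, with a log2 fold change of 1.33 ± 0.40 (adjusted p = 0.13). It was 2.03 in the control mice (adjusted p = 0.076) and 0.62 in the vehicle mice (adjusted p = 0.8). Gadd45b had a log2 fold change of -0.60 (adjusted p = 0.26).

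The mRNAs of kinases that these genes act on were followed too. In the 6 treatment comparisons edgeR called 0.00727% to 2.06% of all genes and DESeq2 0.887% to 3.82%. Both called 0 of 7 p38 and JNK kinase genes there. At an unadjusted p below 0.05 there were 0 or 1 of the 7, against 1117 to 1816 of all 13754 genes. The median log2 fold changes of the 7 ranged from -0.21 to 0.01. Of 15 upstream kinases and adaptors tested, edgeR called 1, Map3k6, which encodes ASK2, an activator of p38 and JNK and also a glucocorticoid-responsive gene. Map3k6 was at 5.35 and 6.75 TMM CPM in wild type controls and at 56.4 and 66.1 after HS (log2 fold change 3.33 ± 0.70, adjusted p = 0.018). It was lower after HSP990 in wild type mice (log2 fold change -3.16, adjusted p = 0.037) and in R6/2 mice (-4.41, adjusted p = 0.0048). The HS call was lost without any 1 of the 4 mice (3.18 to 3.52, adjusted p of 0.055 to 0.22). The HSP990 calls were lost without the second vehicle mouse or either HSP990 mouse, at -3.59 to -2.08 in wild type (adjusted p of 0.19 to 0.45) and -4.49 to -2.76 in R6/2 mice (0.077 to 0.098). DESeq2 called 3 of the 15 after HS (Map2k3 and Map3k1 besides Map3k6) and 3 after HSP990 (Map2k7 and Taok3 besides it) in wild type mice, and Map2k3 after HS in R6/2 mice. Map3k4, the partner of the GADD45 proteins, had log2 fold changes of -0.28 to 0.22 in these comparisons and was not called.

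Of 4 other phosphatases of the MAPK class tested, 3 were called after HSP990 in wild type mice (1.85% of all genes), not all in the same direction. Dusp5, a nuclear ERK phosphatase, rose from 1.41 and 0.582 TMM CPM to 4.54 and 5.81 (log2 fold change 2.38, adjusted p = 0.025), and Dusp2 rose from 1.53 and 0.698 to 4.54 and 4.67 (2.05, adjusted p = 0.027). Both calls were lost without the second vehicle mouse (1.88 and 1.59, adjusted p = 0.38 and 0.39) or either HSP990 mouse, and with only the groups compared. Dusp7, a cytoplasmic ERK phosphatase, went the other way, from 48.1 and 100.1 TMM CPM to 17.7 and 16.2 (-2.13, adjusted p = 0.00047). It kept its call without any 1 of the 4 mice, but lost it with only the groups compared (adjusted p = 0.054). In Hsf1 knockout mice Dusp7 was at 41.3 and 46.99 TMM CPM with vehicle and at 12.2 and 20.8 with HSP990 (-1.43, adjusted p = 0.051). There edgeR called 0 of the 4 phosphatases (0.218% of all genes). DESeq2 called Dusp7 and Dusp8 (0.945% of all genes), and the log2 fold change of Dusp8 was 1.19. Of 15 atypical DUSP genes, which mostly lack the MAPK-docking region, 1 was called, Dusp14 after HSP990 in Hsf1 knockout mice (0.218% of all genes). It was at 6.40 and 3.90 TMM CPM with vehicle and at 34.2 and 37.4 with HSP990 (2.80, adjusted p = 0.012), and it was not called without either vehicle mouse (3.20, adjusted p = 0.091, and 2.48, 0.24) or without the first HSP990 mouse (2.87, 0.05 after rounding), nor with only the groups compared.

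Of 15 kinases and factors downstream of p38 and JNK, edgeR called 2 after treatment, both after HSP990. They were Jun in wild type mice (1.85% of all genes called) and Ddit3 in Hsf1 knockout mice (0.218%). DESeq2 also called Jun after HS in Hsf1 knockout mice (1.17%). Jun, the transcription factor phosphorylated by JNK, rose in wild type mice from 221.7 and 178.8 TMM CPM to 455.2 and 522.9 (log2 fold change 1.29, adjusted p = 0.033), a call lost without any 1 of the 4 mice (1.14 to 1.45, adjusted p up to 0.38). Ddit3, which encodes the stress factor CHOP, rose in Hsf1 knockout mice from 8.95 and 10.96 TMM CPM to 44.6 and 92.8 (2.78, adjusted p = 0.0049), a call lost without either vehicle mouse (2.65 and 2.94, adjusted p = 0.11 and 0.065). The call on Ddit3 was also lost with only the groups compared (adjusted p = 0.32). Among 23 immediate early genes, edgeR called 2 after HS in wild type mice (2.06% of all genes), Nr4a3 (3.09) and Maff (2.97), and DESeq2 9 (3.81%). In R6/2 mice edgeR called 0 after HS, with 7 at an unadjusted p below 0.05 (8.12% of all genes) and 2 by DESeq2 (0.887%). In Hsf1 knockout mice edgeR called 0, with 11 at an unadjusted p below 0.05 (8.8%) and 6 by DESeq2 (1.17%). By edgeR, after HSP990 in wild type mice Ier5 (1.81), Jun and Jund (1.08) rose while Klf2 fell by 1.67, and Klf2 was also lower in R6/2 (-2.22) and Hsf1 knockout mice (-2.56) and Maff in R6/2 mice (-2.49). The call on Klf2 was lost without any 1 of the 4 mice in wild type (-2.11 to -1.35, adjusted p up to 0.29), without 3 of the 4 in R6/2 (up to 0.075) and without the first vehicle mouse in knockout mice (-1.86, adjusted p = 0.088). That on Maff was lost without 3 of 4 after HSP990 in R6/2 mice (up to 0.25) and without the first control mouse after HS (2.72, adjusted p = 0.11), and that on Nr4a3 without either control or the second HS mouse (up to 0.18). Fits of only the groups compared lost the HSP990 calls on Klf2 in every genotype and that on Maff in R6/2 mice. Of 13 ERK feedback genes, Errfi1 (2.25) and Phlda1 (1.63) were called after HS (2.06% of all genes). Phlda1 (2.28) was called after HSP990 (1.85%), and all 3 calls were upwards and in wild type mice. Of 13 ERK pathway kinases 0 were called after treatment by edgeR or DESeq2. At an unadjusted p below 0.05 there were 0 to 3, against 1117 to 1816 of all 13754 genes.

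Relatives and targets of ZFP36 were followed too, in treatment comparisons where edgeR called 0.00727% to 2.06% of all genes. Of 9 genes for other AU-rich element binding proteins 1 was called, Zfp36l1, which rose after HSP990 in wild type mice from 37.5 and 42.7 TMM CPM to 83.1 and 92.8 (log2 fold change 1.13, adjusted p = 0.025), a call lost without any 1 of the 4 mice (1.04 to 1.23, adjusted p up to 0.17). Zfp36l2 had log2 fold changes of -0.24 to 0.25. Of 13 mRNAs known to be bound by TTP 0 were called in the 6 treatment comparisons, with 2 to 4 at an unadjusted p below 0.05 and 0 to 2 called by DESeq2. After HS in wild type mice their median log2 fold change was -0.40 (-0.01 over all genes tested). Of the 13, 4 were higher, against 6567 of all 13754 genes. A link to the rise of Zfp36 was not tested.

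Glucocorticoid-responsive genes, some of which belong to other lists here, were called in 3 of the 6 treatment comparisons. They rose after HS in wild type mice and fell after HSP990 in wild type and R6/2 mice. This list too was chosen with earlier results of these data known. In wild type mice 13 of 20 rose after HS (median log2 fold change 2.14, against 1.59% of all genes called upwards) and 5 fell after HSP990 (median -1.43, against 0.407% called downwards). In R6/2 mice 0 were called after HS (median 1.14), with 13 at an unadjusted p below 0.05 (8.12% of all genes) and 4 by DESeq2 (0.887%). After HSP990 12 fell there (median -1.96, against 0.96% called downwards). In Hsf1 knockout mice 0 were called after HS (median 1.06), with 11 at an unadjusted p below 0.05 (8.8%) and 3 by DESeq2 (1.17%). After HSP990 0 were called there (median -0.81), with 6 at an unadjusted p below 0.05 (9.48%) and 1 by DESeq2 (0.945%). Examples were Ddit4 (5.71 after HS in wild type mice, -4.77 after HSP990 in R6/2 mice), Mt2 (4.93 and -6.03) and Cebpd (3.55 after HS). The HS call on Ddit4 was lost without either control mouse (adjusted p up to 0.12), that on Mt2 also without the second HS mouse (up to 0.2), and the HSP990 call on Ddit4 without 3 of the 4 mice (-3.05 without the second vehicle mouse, adjusted p up to 0.2). Their part in the levels of the 10 genes was not tested. Cdkn1a, a GADD45 partner that encodes the cell cycle inhibitor p21, was at 30.3 and 41.5 TMM CPM in wild type controls. After HS it was at 163.4 and 224.8 (2.43, adjusted p = 0.035), the only called gene of 12 partners in that comparison (2.06% of all genes). In R6/2 mice it was at 148.4 and 342.2 TMM CPM with vehicle and at 35.2 and 42.5 with HSP990 (-2.66, adjusted p = 0.026). The HS call was lost without any 1 of the 4 mice (2.19 to 2.68, adjusted p up to 0.33), and the HSP990 call without the second vehicle mouse (-1.93, adjusted p = 0.29) or either HSP990 mouse (-2.53 and -2.80, adjusted p = 0.29 and 0.15).

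**Figure D4:**
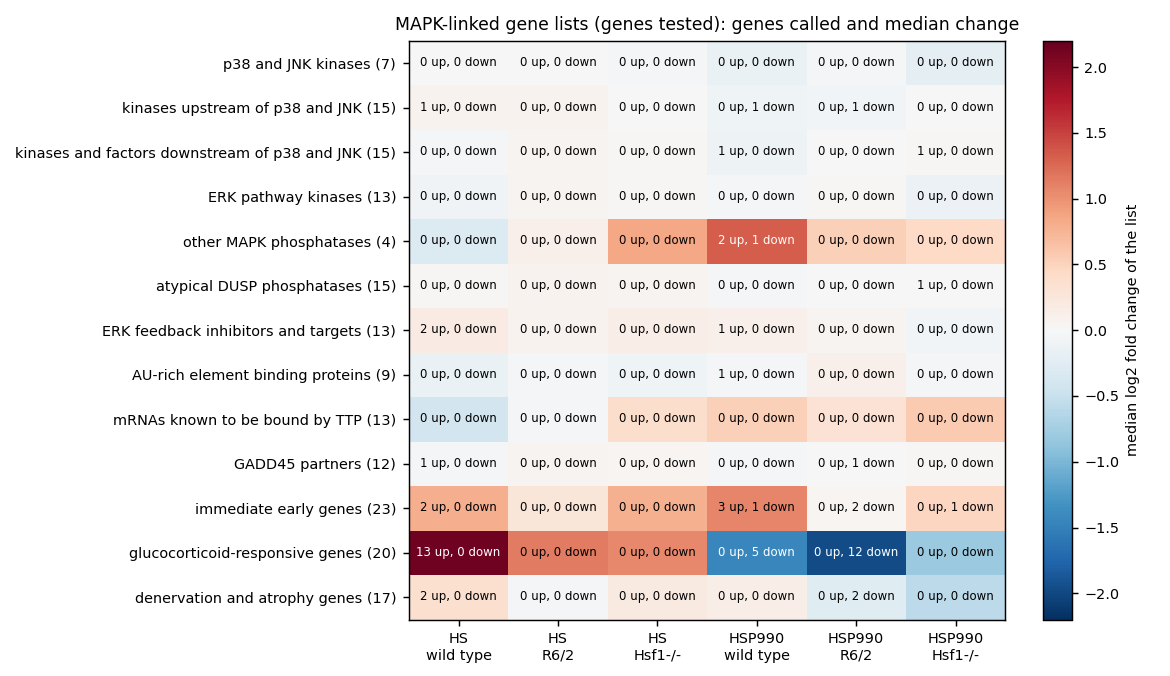
Median log2 fold change of each MAPK-linked gene list in each treatment comparison (colour), with the number of genes called up and down in each cell and the number tested beside the list's name. The glucocorticoid-responsive genes have the highest median after HS in wild type mice (2.14) and the lowest after HSP990 in R6/2 mice (-1.96), and the p38 and JNK kinases stay between -0.21 and 0.01 over the 6 treatment comparisons.

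In untreated R6/2 mice 2 of the 7 p38 and JNK kinase genes and 7 of the 15 upstream genes were called against wild type mice. Of all genes 30.5% were called, so that the first count is near the background, and the second was not tested against it. With library size only, 12 of the upstream genes were called upwards and 1 downwards, where 64.5% of all genes were called. Map2k6, which encodes the p38 activator MKK6, was at 4.56, 11.6, 7.70 and 11.5 TMM CPM in R6/2 mice and at 58.4, 53.5, 57.0 and 80.8 in wild type mice. It fell by 2.82 ± 0.24 on the log2 scale (adjusted p = 5.4e-07), and by 2.22 with scaling by library size only. Mapk12, which encodes p38γ, an isoform of muscle, fell by 0.85 (adjusted p = 7.5e-05), but was not called with library size only (-0.24). Map3k4 rose by 0.47 (adjusted p = 0.0019), Map3k5, which encodes ASK1, by 0.65 (0.0021) and Cdkn1a by 2.61 (0.00016). Dusp7 fell by 1.53 (adjusted p = 3.2e-05) and by 0.92 with library size only. These differences stand beside the lower muscle fibre markers, whose part was not tested.

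Denervation and atrophy are a setting in which Gadd45a is known. Of 17 genes of this setting 2 rose after HS in wild type mice, where 1.59% of all genes were called upwards. They were Cdkn1a and Trim63, which encodes the muscle ubiquitin ligase MuRF1 (Trim63 log2 fold change 2.18 ± 0.35, adjusted p = 0.0032). Without the first control mouse Trim63 was not called (2.02, adjusted p = 0.097). The same 2 genes fell after HSP990 in R6/2 mice, Trim63 by 1.43 (adjusted p = 0.049), where 0.96% of all genes were called downwards. In the other 4 treatment comparisons edgeR called 0 (0.00727% to 1.85% of all genes). DESeq2 called 0 to 2 there (0.887% to 3.82%), and 2 to 7 had an unadjusted p below 0.05 (8.12% to 13.2%). In untreated R6/2 mice 6 of the 17 were called against wild type mice (30.5% of all genes, 15.1% upwards), all upwards, among them Runx1 (2.39), the acetylcholine receptor subunit gene Chrna1 (1.87) and Sln (3.93), which encodes the calcium pump inhibitor sarcolipin. With scaling by library size only 11 were called, a share near the 64.5% of all genes called under that scaling.

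The genes whose levels followed those of a member most closely over the 24 mice were taken from 11119 genes with a mean of at least 1 CPM, by Spearman correlation. The mice share treatments and genotypes, so the values are descriptions only. They were Lrch1 (0.92) for Zfp36 and S1pr1 (0.91), Tcim (0.90) and Tob2 (0.90) for Gadd45g. For Dusp10 it was Kdr (0.91), for Gadd45a Gramd1b (0.88) and Cdkn1a (0.87), and for Dusp6 Sgk1 (0.85). For Gadd45b (Csnk2b, 0.81), Mapk14 (Sort1, 0.76), Dusp16 (Igf2bp2, 0.75), Dusp4 (Adcy3, 0.75) and Dusp1 (Spry4, 0.73) the likeness was weaker. Among the members, Zfp36 followed Gadd45g (0.77) and ran opposite to Dusp10 (-0.83), and Gadd45b followed Dusp1 (0.66).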

How the data were processed

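RNA of quadriceps femoris muscle was sequenced in 24 mice, 2 in each of 12 groups of 3 genotypes and 4 treatments. The authors made polyA-selected, strand-specific, paired-end libraries, and the submitters' processing notes name Bowtie, DESeq2 and the mm9 build. The deposited values are raw counts of reads per gene, with a column for each of the 24 mice, none left out. The counting program, the gene annotation and the use of strand in counting are not given in the sources used here. The labels give each mouse as a separate sample, so p-values measure the spread between single mice.

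The 10 genes and the other lists were chosen with earlier results of these data known. A gene was tested if 10 or more libraries had 2 or more counts for it. Counts were scaled with TMM and fitted as 12 groups with edgeR 4.0.16 (limma 3.58.1, R 4.3.3), with quasi-likelihood F tests (12 residual degrees of freedom) in 15 comparisons with Benjamini-Hochberg adjustment within each. The standard error is the log2 fold change divided by the root of the F value. Intervals use these residual degrees of freedom alone and are wider than the F tests. Treated groups were compared with their own controls, genotypes with control and vehicle mice averaged, and differences between responses as interactions. Groups came from the labels' titles. The fit was tested on simulated data before use. All 10 genes were named, with up to 4 called genes of each list per comparison that had a mean of at least 1 CPM and the largest change, plus Map3k4, Zfp36l1, Zfp36l2, Dusp5, Dusp7 and Dusp8, and up to 3 genes most like each member. edgeR did not call Dusp8 after treatment. Klf2, Ucp1 and Hsf1 levels and the marker sums serve as checks.

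The alternatives were scaling by RLE or by library size only, filterByExpr or no filter, a block for the replicate number, only the groups compared, DESeq2 1.42.0, control or vehicle mice alone, and leaving out each mouse. Promoters came from RefSeq (GRCm38.p6), matched by symbol, and 3′ UTRs and gene positions from GENCODE vM1 (mm9). Tables were handled in Python 3.11.15 (pandas 2.3.3).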

Additional observations from a re-analysis of the deposited data

Results flagged for a closer look

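Dusp16, the JNK phosphatase gene, had uncalled log2 fold changes of opposite sign after HS in 2 genotypes, every HS mouse lying on one side of its controls. In R6/2 mice it gave 16.9 and 12.7 TMM CPM in the controls and 10.3 and 10.7 after HS, a log2 fold change of -0.50 (adjusted p = 0.64). In Hsf1 knockout mice it gave 13.5 and 13.7 TMM CPM in the controls and 21.8 and 17 after HS, a log2 fold change of 0.52 (adjusted p = 0.6). Neither change was called, and the difference between these 2 genotypes was not tested. Such separation from the controls held for 7 of the 10 genes in R6/2 and 9 in knockout mice. Its share over all genes was not counted.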

How the results depend on the processing

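For 90 gene results the alternatives gave 1168 values, of which 997 kept direction and side of the threshold, 143 kept the direction but lost the call, 22 gained one and 6, none of them called, changed sign. The changes of sign came from leaving out 1 mouse, except that of Gadd45a for HS against HSP990 in knockout mice, which was -0.050 with library size only. Without 1 mouse that value ranged from -0.031 to 0.33. Over the same kind of alternative Zfp36 after HSP990 ranged from -0.59 to 0.30 in wild type mice (above 0 without the first HSP990 or the second vehicle mouse), Gadd45g after HSP990 in knockout mice from -1.87 to 0.19 (above 0 without the first vehicle mouse), and the HSP990 difference of Dusp4 between knockout and wild type mice from -0.10 to 2.75 (below 0 without the first knockout HSP990 mouse).

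Counts of called members changed as follows, and beyond the construction of an alternative the cause was not tested. After HS in wild type mice 3 became 5 with only the groups compared and 5 with DESeq2, and 0 to 2 without 1 mouse (0 without either control mouse). After HSP990 in R6/2 mice 1 became 0 with only the groups compared, 2 with DESeq2, and 0 to 3 without 1 mouse. After HS 0 became 1 in R6/2 and 2 in knockout mice with only the groups compared, and 2 in knockout mice with DESeq2. After HSP990 in knockout mice 0 became 1 with DESeq2 and 0 to 1 without 1 mouse. For HS against HSP990, 3 became 5 in wild type and 0 in R6/2 mice with only the groups compared, with 1 to 3 and 1 to 4 without 1 mouse. In untreated R6/2 mice 5 became 1 in control mice and 3 in vehicle mice alone, and 2 to 5 without 1 mouse. In untreated knockout mice, and in the difference of their HS response from wild type, 0 became 1 with only the groups compared. Outside the members, that alternative also lost the HSP990 calls on Map3k6 (wild type and R6/2 mice), Cdkn1a and Ddit4 (R6/2 mice).

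Mice of 1 number did not deviate together (r from -0.197 to 0.239 over the 6 pairs of groups), so the numbers do not pair the mice. The replicate block changed 1 count, that of HS against HSP990 in knockout mice, from 1 to 0, as did library size only, filterByExpr and only the groups compared, with 0 to 1 without 1 mouse. Over all genes edgeR and DESeq2 called 283 and 524 genes after HS in wild type, 6 and 122 in R6/2 and 1 and 161 in knockout mice, and 255 and 525, 197 and 363, and 30 and 130 after HSP990. With library size only 161 of 316 HS calls in wild type mice were upwards (219 of 283 with TMM), and 8455 of 8876 in untreated R6/2 mice (2075 of 4194). With 2 mice per group, changes below the spread between mice were not detectable.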
